A study of Mus musculus with 13 samples.

Results

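The places bound by an HA-tagged Myf6 in mouse embryonic fibroblasts (MEFs) were compared between cells in which the factor was induced together with 3 compounds and cells that received neither. The comparison used 4 of the 13 libraries of the series, each with its own list of narrow peaks from CUT&RUN, an assay in which an antibody-tethered nuclease releases the DNA around a bound protein. Peaks of the 4 lists that overlapped by 1 bp or more on chromosomes 1 to 19 were joined, which gave 51690 regions. A region was called gained if both induced lists and neither uninduced list held a peak there, which was the case for 15124 regions. A region was called present without doxycycline if both uninduced lists held a peak, which was the case for 1049 regions.

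All cells carried the alleles CAG-rtTA3, which supplies the doxycycline-dependent activator, Pax7-CreERT2 and Rosa26-LSL-tdTomato. All had been transduced with the same lentivirus, which places HA-tagged mouse Myf6 under a doxycycline-responsive promoter, so that the uninduced controls carried the construct too. The induced group (+Myf6+F/R/C) spent 24 h in iMPC medium with Forskolin (5 µM), RepSox (5 µM), CHIR99021 (3 µM) and doxycycline (2 µg/mL), and the uninduced group spent 24 h in iMPC medium alone. Doxycycline and the 3 compounds differ together between these groups, so that their parts in any difference cannot be told apart from this comparison. Each group had 2 HA libraries, and the labels do not state whether the replicates came from separate cultures. The library names of the second replicates begin with the same code in both groups and those of the first replicates do not, and what the code stands for is not stated. Peak lists carry no expression values, so the fibroblast label was not checked against marker genes.

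Myf6 (MRF4) belongs with MyoD, Myf5 and myogenin to the myogenic regulatory factors, which share a basic helix-loop-helix domain. These factors pair with E proteins and bind the short DNA motif known as the E-box, and Myf6 is best known from muscle fibres and from early muscle determination in the embryo. Of the compounds, CHIR99021 blocks the kinase GSK3, RepSox blocks signalling through the TGF-β type I receptor, and Forskolin raises cyclic AMP by activating adenylyl cyclase. H3K27me3, measured in 1 library of the +Myf6+F/R/C cells, is a histone mark of chromatin silenced by Polycomb proteins.

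Many more HA peaks were called in the induced than in the uninduced cells. The induced lists held 37811 and 31504 peaks on chromosomes 1 to 19 (replicates 1 and 2), and the uninduced lists held 2130 and 4138. The lowest induced list was 7.61 times as long as the longest uninduced list, so that the groups did not overlap. The means were 34660 ± 4460 peaks (SD, n = 2) with induction and 3134 ± 1420 peaks (SD, n = 2) without it, a ratio of 11.06 or 3.47 on the log2 scale. The exact permutation test on the numbers of peaks (two-sided) gave p = 0.333, the smallest value that 2 libraries against 2 allow, so the design cannot reach 0.05. Induced peaks covered 12.96 ± 2.11 Mb (SD, n = 2) and uninduced peaks 0.671 ± 0.163 Mb. The induced peaks were also wider, with medians of 339 and 316 bp against 214 and 154 bp.

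The induced libraries were also the deeper ones. The mean number of fragments per 10 kb, recovered from the peak values, was 61.9 and 40.9 in the induced and 30.6 and 23.7 in the uninduced HA libraries. Within the uninduced group the shallower library held the longer list. After the pileups of all 4 lists were scaled down to the depth of the shallowest library, 15511 and 21269 induced peaks were still strong enough to be called, against 2042 and 4138 uninduced ones. The induced lists then remained 7.60 and 5.14 times as long as the uninduced lists of the same number. A second scale, given below for the regions in all 4 lists, was not applied to these counts or to the gained regions. The narrowest peak of a list, which shows its fragment length, was 164 and 172 bp in the induced and 152 and 108 bp in the uninduced lists, and its part in the difference was not tested.

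**Figure D1:**
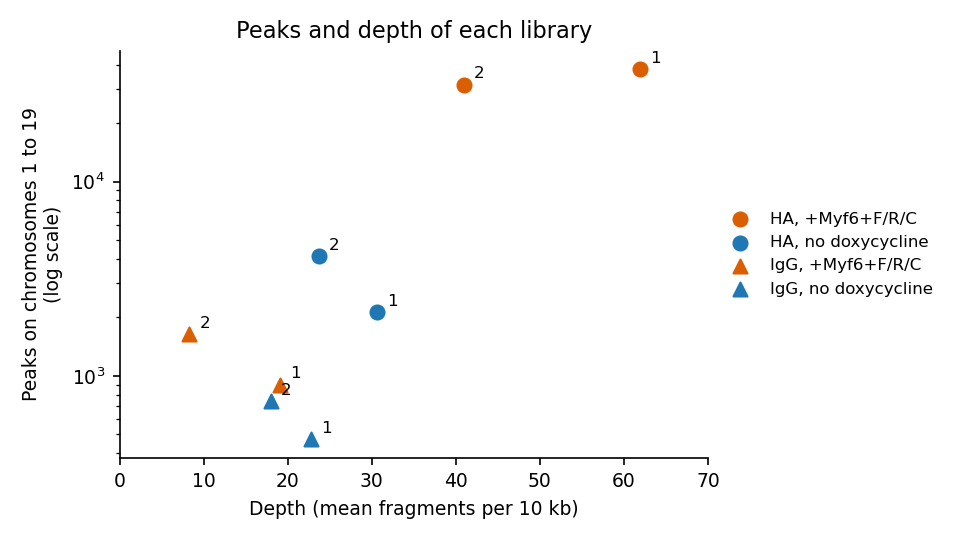
Number of peaks on chromosomes 1 to 19 (log scale) against depth in mean fragments per 10 kb, for each HA library (circles) and IgG library (triangles) of the 2 treatments, labelled by replicate. Both induced HA libraries hold at least 31504 peaks, and both uninduced HA libraries, which are shallower, at most 4138.

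The gained regions made up 29.3% of all merged regions and 82.8% (95% Clopper-Pearson interval 82.3 to 83.4%) of the 18259 regions that both induced lists shared. Such intervals cover counting error only. The opposite pattern, a peak in both uninduced lists and in neither induced list, was found at 34 regions, or 0.0658% of all, and 23 of these 34 also held a peak in a control IgG list. The induced lists shared 48.6% of the regions of replicate 1 and 58.7% of those of replicate 2. A further 18848 regions without an uninduced peak were found in induced replicate 1 alone and 12584 in induced replicate 2 alone. Those regions were weaker than the gained ones, with median summit pileups of 11 and 9 fragments against 15 and 12 at the gained regions. Their median width was 256 bp against 509 bp. A gained region joins peaks of 2 lists, which widens it by construction, so the widths are not a measure of strength. Some were strong all the same: 754 of the regions found in replicate 1 alone and 112 of those found in replicate 2 alone had a −log10 q of at least 10.

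**Figure D2:**
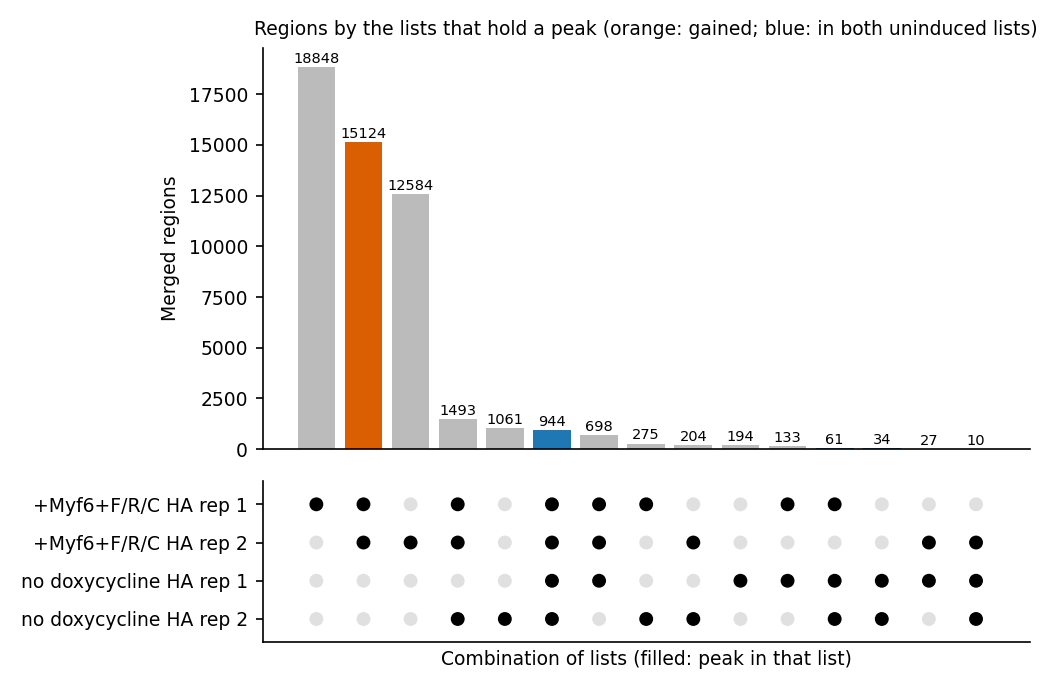
Number of merged regions (bars) for each of the 15 combinations of HA lists, with filled circles for the lists that held a peak. The gained regions (orange) are the second-highest bar at 15124, and the regions in all 4 lists (the tallest blue bar) number 944.

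Most gained regions were modest peaks. The median of the authors' fold enrichment over local background was 5.49 in replicate 1 and 5.28 in replicate 2, and the median −log10 q was 6.65 and 5.12. A −log10 q of at least 5 in both induced lists was found at 6213 gained regions, of at least 10 at 1023 and of at least 20 at 46. The summits of the replicates lay a median of 75 bp apart, and 57.9% lay within 100 bp of each other. The gained regions together covered 8.32 Mb, with widths from 406 to 662 bp in the middle of their distribution (quartiles).

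The 10 strongest gained regions, ranked by −log10 q in the induced lists, had summit pileups of 45 to 81 fragments in replicate 1 and 37 to 57 in replicate 2. The first lay on chromosome 2 (78019836 to 78020787, GRCm39), with pileups of 75 and 57 fragments and folds of 10.7 and 9.18. The second lay on chromosome 14 (86773426 to 86774589), with pileups of 81 and 50 fragments and folds of 11.0 and 9.44. The third, on chromosome 4 (134238466 to 134239355), had pileups of 62 and 57 fragments and folds of 11.5 and 14.2. The ranking used these same values, so they are a description of the strongest sites. The measurements that the ranking did not use were the same at these 10 regions in 2 respects: all 10 held a peak in both HA libraries of cells given doxycycline without the compounds (+Myf6), and none held a peak in any of the 6 IgG libraries. Over all gained regions, 51.1% held a peak in both +Myf6 lists and 2.55% in any IgG list. Over all merged regions these shares were 26.98 and 2.67%. The lack of IgG peaks at these 10 regions was thus near the general share. The third region was the one of the 10 that also held an H3K27me3 peak, against 33.3% of all gained regions. At the first region the +Myf6 pileups were 27 and 31 fragments, and at the second they were 45 and 27.

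The +Myf6 libraries, which had no part in the choice of the regions, held peaks at most gained regions. Both +Myf6 lists had a peak at 51.1% of the gained regions (50.3 to 51.9%), 1 of them at 30.5% and neither at 18.5%. At regions found in 1 induced list alone and in no uninduced list, both +Myf6 lists had a peak at 10.8% and neither at 60.7%. Over all merged regions the share in both +Myf6 lists was 26.98%. The +Myf6 libraries had depths of 42.4 and 30.6 fragments per 10 kb, below those of the +Myf6+F/R/C libraries of the same number.

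The share seen with doxycycline alone was lower at the weaker gained regions. From the strongest to the weakest quartile of 3781 gained regions each, both +Myf6 lists held a peak at 80.2, 55.3, 41.0 and 27.7% of the regions, and neither list at 4.34, 13.8, 22.4 and 33.4%. The median summit pileups of these quartiles were 24, 17, 13 and 11 fragments in replicate 1 and 18, 13, 11 and 9 in replicate 2. Their median widths fell as well, at 653, 527, 472 and 424 bp, and the part of width in these shares was not tested. The summits of the replicates were closest in the strongest quartile, at a median distance of 43 bp, and farthest apart in the weakest, at 109 bp. Scaled to the depths of the uninduced libraries, 99.2% of the strongest quartile, 67.7 and 17.7% of the next quartiles and 0.291% of the weakest quartile would still have been called in every pairing of an induced with an uninduced library. Over all gained regions this share was 46.2%, or 6989 regions. For the other gained regions, a like signal in the uninduced cells might not have been detectable at the depth of at least 1 uninduced library. In at least 1 pairing 94.1% of the gained regions would still have been called, and in single pairings 55.3 to 88.0%.

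**Figure D3:**
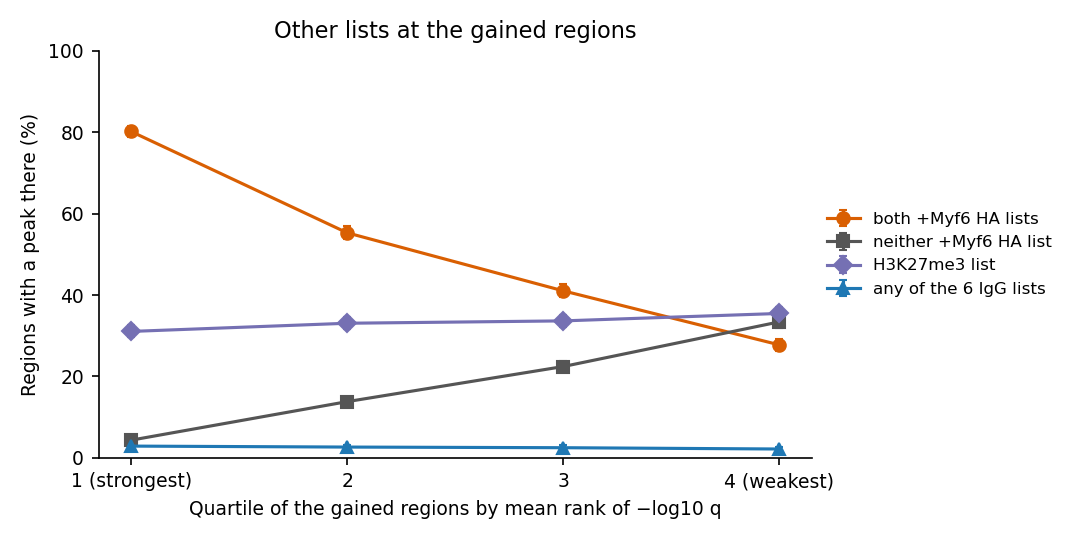
Share of gained regions (%, with 95% Clopper-Pearson intervals) that held a peak in both +Myf6 HA lists, in neither, in the H3K27me3 list and in any IgG list, by quartile of strength (3781 regions each). The share in both +Myf6 lists is 80.2% in the strongest and 27.7% in the weakest quartile, while the H3K27me3 share lies between 31.1 and 35.5%.

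Some gained regions with clear peaks had none in the +Myf6 lists. The strongest of these by −log10 q lay on chromosome 15 (62468508 to 62469044), with pileups of 33 and 23 fragments and folds of 10.4 and 9.89. The next lay on chromosome 4 (131626026 to 131626837), with pileups of 32 and 19 fragments and folds of 13.9 and 9.29. None of the 5 strongest such regions held an H3K27me3 or IgG peak. Over all gained regions 33.3% held an H3K27me3 peak and 2.55% an IgG peak, and over all merged regions 28.0 and 2.67%. With 5 regions, no departure from these shares can be read. The 5 regions were picked for lacking a +Myf6 peak, so that absence is a description. The difference between the induced treatments was not tested at them.

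H3K27me3 peaks were found at 33.3% of the gained regions (32.6 to 34.1%), against 23.9% of the regions in 1 induced list alone and 28.0% of all merged regions. The gained regions were wider than the single-list regions, as given above, and the part of width in this difference was not tested. Within the gained regions the share was 31.1% in the strongest quartile, the widest at a median of 653 bp, and 35.5% in the weakest, the narrowest at 424 bp. H3K27me3 was measured in 1 library of induced cells, so that no comparison with uninduced chromatin can be made.

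Control IgG peaks were found at a share of the gained regions near that over all regions. Any of the 6 IgG lists had a peak at 385 of them, or 2.55% (2.30 to 2.81%), against 2.67% of all merged regions and 1.11% (0.997 to 1.23%) of the regions in 1 induced list alone. The IgG libraries were shallow, at 8.25 to 22.7 fragments per 10 kb, so that weak IgG signal may have gone uncalled. In 321 of these a single IgG list held the peak. At 3 gained regions all 6 IgG lists held one, with HA pileups of 11 to 18 fragments in induced replicate 1. One of these was on chromosome 7 (6365415 to 6366264) and the other two were on chromosome 1.

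The gained regions were spread over all 19 autosomes. Their density over the span of peaks on a chromosome ran from 5.09 per Mb on chromosome 14 to 7.69 per Mb on chromosome 11. Gained regions made up from 27.6% of the regions on chromosome 6 to 31.0% on chromosome 7. Another gained region lay within 10 kb at 19.8% of the gained regions, and the median gap to the nearest one was 28.8 kb. For regions in 1 induced list alone, a gained region lay within 10 kb at 20.7%.

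The regions present in both uninduced lists were few, 2.03% of all merged regions, and most also held a peak with induction. Of the 1049, 944 (90.0%, 88.0 to 91.7%) held a peak in both induced lists, 71 in 1 and 34 in neither. Over all merged regions, 35.3% held a peak in both induced lists. The 1049 regions made up 49.9% of the regions of uninduced replicate 1 and 25.7% of those of replicate 2. The regions with a peak in 1 uninduced list alone numbered 4085. Both induced lists held a peak at 66.3% of the 1052 regions found in uninduced replicate 1 alone and at 49.2% of the 3033 found in replicate 2 alone, and neither did at 18.4 and 35.0%.

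Those 1049 regions were split into 2 kinds by whether any IgG list held a peak. An IgG peak was found at 346 of them. Of these, 226 held a peak in all 6 IgG lists and 29 in 1 list only. The other 703 had no IgG peak in any library. The IgG libraries were shallow, as given above, so weak IgG signal may have gone uncalled there. The regions without an IgG peak were wide, at a median of 746 bp, and those with one were narrower, at 341 bp. Both induced lists held a peak at 94.7% of the regions without an IgG peak (92.8 to 96.3%) and at 80.3% of those with one (75.8 to 84.4%). Both +Myf6 lists held a peak at 89.5 and 83.5% of them, against 26.98% of all merged regions. H3K27me3 peaks were found at 45.2% of the regions without an IgG peak (41.5 to 49.0%) and at 71.1% of those with one (66.0 to 75.8%). Over all merged regions the H3K27me3 share was 28.0%. At regions with an IgG peak, an H3K27me3 peak cannot be told apart from control signal in these lists. The part of width in these shares was not tested.

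The strongest uninduced peaks were IgG peaks too. All 10 of the strongest regions present without doxycycline held a peak in all 6 IgG lists and in the H3K27me3 list. The first, on chromosome 6 (103625906 to 103626345), had folds of 38.2 and 38.3 in the induced and 40.4 and 46.1 in the uninduced libraries. The third, on chromosome 12 (3159758 to 3160236), had folds of 28.9 and 33.3 in the induced and 32.5 and 37.7 in the uninduced libraries. No order of the groups was read from these folds, since the uninduced replicate 2 pileups at these regions, 197 and 216 fragments, lay within 10% of the highest that list can hold. Such a ceiling was seen in all 4 lists. The highest pileup in each HA list was at or below 2 fragments per bp of fragment length, at 325, 341, 304 and 216 fragments in induced replicates 1 and 2 and uninduced replicates 1 and 2. In the uninduced lists, 16 and 8 peaks lay within 10% of that ceiling, against 3 and 1 in the induced lists.

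The strongest present regions without an IgG peak, a set described after the values were seen, held a peak in every HA library. The first, on chromosome 13 (91519081 to 91519709), had pileups of 54 and 51 fragments in the induced and 43 and 30 in the uninduced libraries. A region on chromosome 3 (144348730 to 144349977) had 92 and 90 fragments with induction and 48 and 29 without it. A region on chromosome 10 (107498232 to 107499129) had 84 and 51 fragments against 27 and 19, with folds of 14.2 and 13.6 against 11.7 and 11.0. The pileups of both induced libraries were higher at these 3 regions, before any correction for depth. The folds over local background did not all follow: they were 10.0 and 12.3 against 14.0 and 12.5 at the region on chromosome 13, and 6.74 and 9.33 against 10.2 and 9.76 at that on chromosome 3, so that both induced folds were the lower ones there. All 10 strongest regions of this kind held a peak in both +Myf6 lists, and 8 of them held an H3K27me3 peak. Over all 703 regions of this kind these shares were 89.5 and 45.2%, and over all merged regions 26.98 and 28.0%.

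The 944 regions with a peak in all 4 HA lists allow the groups to be compared by pileup. After scaling to the depth of the shallowest library, at 23.7 fragments per 10 kb, both induced pileups lay above both uninduced pileups at 455 regions (48.2%) and below both at 226 (23.9%), and the groups overlapped at the other 263. After this scaling the direction differed between the 2 kinds of region. At the 666 regions without an IgG peak the median scaled pileups were 13.8 and 14.5 fragments with induction and 9.27 and 9 without it. Both induced libraries were higher at 444 of these regions and lower at 17, and the median difference was 0.57 on the log2 scale. Before scaling the medians were 36 and 25 fragments with induction and 12 and 9 without it. The lowest pileups called in the uninduced lists were 5 and 4 fragments. Weaker uninduced signal could not enter this set, and the part of this floor in the difference was not tested. At the 278 regions with an IgG peak the scaled medians were 11.1 and 12.7 fragments with induction and 17.0 and 19 without it. After scaling, both induced libraries were higher at 11 of these regions and lower at 209, and the median difference was -0.72 on the log2 scale. Before scaling the medians were 29 and 22 fragments with induction and 22 and 19 without it. The induced medians were thus not the lower ones until depth was corrected for. The pileup ceiling given above follows fragment length and not depth, so scaling lowers it most in the deepest library. At most 16 peaks of a list lay within 10% of the ceiling, and its part in this difference was not tested.

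These values rest on the scaling. With the lowest expected pileup of each library in place of its fragments per 10 kb, a choice made after the data were seen, the median log2 difference was 0.16 at the regions without an IgG peak and -1.13 at those with one. Both induced libraries were then higher at 197 and lower at 61 of the regions without an IgG peak, and higher at 3 and lower at 235 of those with one. The order of the 2 kinds of region was the same by either scale, and a level set by spiked-in chromatin was not used here.

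**Figure D4:**
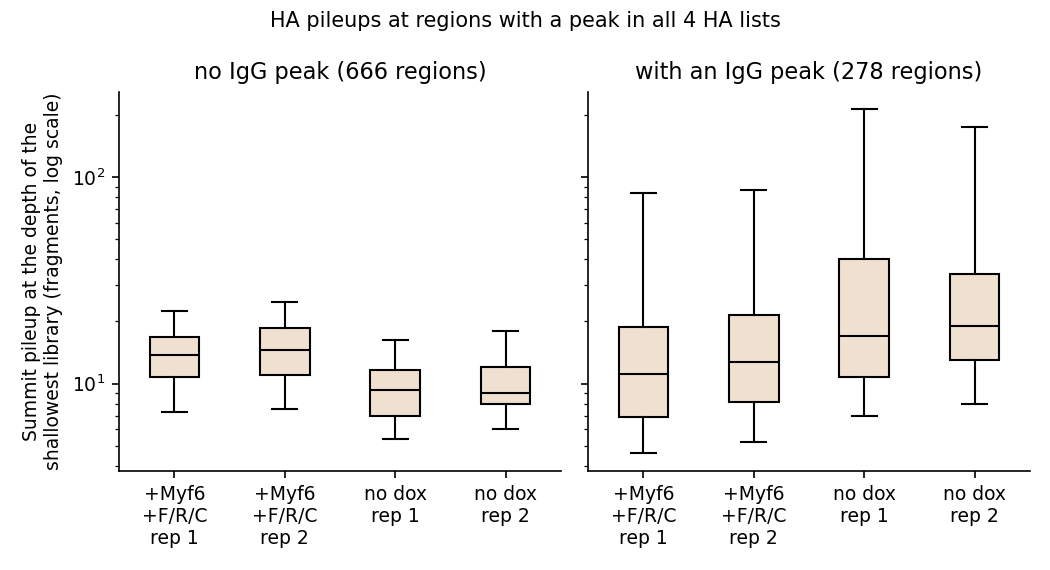
Summit pileups in fragments, scaled to the depth of the shallowest library (log scale), at the regions with a peak in all 4 HA lists, for 666 regions without and 278 with an IgG peak. Lines are medians, boxes quartiles and whiskers the 5th to 95th percentiles. The induced medians lie above the uninduced ones on the left and below them on the right.

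Present regions without an IgG peak differed widely in how far the groups stood apart. The 5 with the largest ratio of the lower induced to the higher uninduced scaled pileup had, before scaling, 43 to 67 fragments in induced replicate 1 and 31 to 45 in replicate 2, against 8 to 10 and 6 to 9 in the uninduced replicates. They were picked for that ratio, and ordering by the difference in pileup would place another region first. One lay on chromosome 13 (30375864 to 30376703), with folds of 12.0 and 10.2 with induction and 5.83 and 6.23 without it.

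Of the 34 present regions without any induced peak, the strongest lay on chromosome 9 (74024823 to 74025008), with uninduced pileups of 12 and 22 fragments and a peak in 2 IgG lists. Another on the same chromosome (3010886 to 3011076) had high pileups of 257 and 147 fragments but folds of 1.79 and 2.13 over its local background. All 5 of the strongest such regions held a peak in at least 1 IgG list. Chromosome 9 also held the most present regions for its length, with 94 regions or 0.775 per Mb. Of these 94, 38 were without an IgG peak, at 0.313 per Mb, and the densities of such regions ran from 0.221 per Mb on chromosome 14 to 0.431 per Mb on chromosome 19.

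Uninduced peaks were most frequent among the strongest of the induced regions. When the 18259 regions in both induced lists were ordered by −log10 q in those lists, 9 of the first 100 were gained, and 80 were present in both uninduced lists, 24 of these without an IgG peak. Gained regions made up 29.0% of the following places up to 500, 51.3% of those up to 2000, 70.8% of those up to 5000, 86.8% of those up to 10000 and 94.0% of the rest. The uninduced libraries were the shallower ones, and the part of depth in this order was not tested. Of the 400 regions that follow the first 100, 116 were gained and 128 were present in both uninduced lists without an IgG peak.

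**Figure D5:**
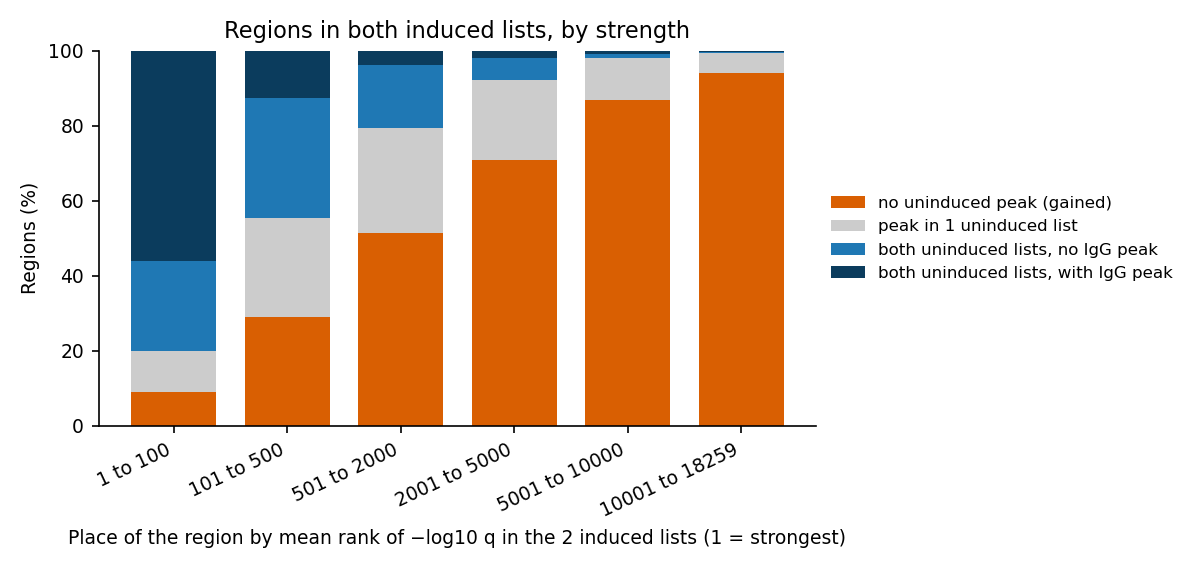
Share (%) of the regions in both induced lists that were gained, had a peak in 1 uninduced list, or had a peak in both uninduced lists without or with an IgG peak, by place in the order of strength. Gained regions make up 9% of the first 100 places and 94.0% of the last class, which ends at place 18259.

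The summits of induced and uninduced peaks lay close together at the regions they shared. At present regions without an IgG peak, the summits of uninduced and induced replicate 1 were a median of 50 bp apart and those of replicate 2 a median of 77 bp apart. At those with an IgG peak the distances were 19 and 22 bp. A gained region lay within 10 kb of 25.04% of the present regions without an IgG peak (21.9 to 28.4%) and of 12.1% of those with one (8.89 to 16.1%). For gained regions and for regions in 1 induced list alone, the shares were 19.8 and 20.7%.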

How the data were processed

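HA, IgG and H3K27me3 CUT&RUN peak lists were used, 1 per library, so replicates were called separately. The submitters' processing notes name MACS2, DiffBind and deepTools, without versions, and the build GRCm39; the aligner is not given in the sources used here. The lists deposited by the authors give each peak a score (not used), a fold enrichment (a ratio to local background) and, on a −log10 scale, a p-value and a q-value at the summit. From the deposited fold and −log10 p, whole summit pileups and expected pileups were recovered, to within 0.002 of the deposited −log10 p for 100% of peaks. Depth per 10 kb is the lowest expected pileup divided by the narrowest peak's width. Where a region held several peaks of a list, the one with the highest −log10 p gave its values. The recovery and merging were tested on simulated data. Shares carry exact Clopper-Pearson 95% intervals, and the numbers of peaks an exact permutation test. A peak with a scaled pileup counted as called where its −log10 p was at least the lowest one in the shallower library's list. Python 3.11.15, numpy 2.4.6, scipy 1.17.1 and pandas 2.3.3 were used. The 10 strongest gained regions and the 10 strongest present regions, with and without the condition of no IgG peak, were taken by mean rank of −log10 q. Smaller sets of 3 or 5 regions were added after the values were seen, one of them ordered by the ratio of scaled pileups. The regions, classes and lists were chosen with earlier results of these data known. A GRCm39 genome and gene annotation were not used here, so gene assignment, position relative to genes and E-box content were not analysed here and no sequence is given. No spike-in reads were used.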

Additional observations from a re-analysis of the deposited data

How the results depend on the processing

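The log2 ratio of peak numbers kept its direction under its 10 alternatives, between 2.57 (pileups scaled to the shallowest library) and 4.02 (without uninduced replicate 2), with no alternative able to reach 0.05. With the replicate number as a block it was 3.54 (exact sign-flip p = 0.5, the smallest for 2 pairs). The difference between replicates 1 and 2 in the presence of a peak correlated at r = 0.0253 between the groups over 51690 regions. Only 4085 regions had a peak in 1 uninduced list alone. At all others the uninduced replicates did not differ, so r cannot decide whether replicates were paired. Gained regions numbered 7476 at a −log10 q of at least 5 and 1892 at 10, 7013 after scaling to the shallowest library, 9692 with 50% reciprocal overlap and 8757 with summits within 100 bp. Leaving out 1 library gave 15822 to 33972: 27708 without induced replicate 1 and 33972 without replicate 2, since 1 induced list then sufficed. With all 4 lists cut to the same 2130 peaks, an alternative chosen after seeing the data, 473 regions were gained and 267 were in both uninduced lists alone, 11 and 142 of them with an IgG peak. This cut removes the difference in numbers by construction. Scaling left 54 regions in the opposite direction. Present regions numbered 525 and 216 at the stricter q-values and 5134 with a peak in either uninduced list. Leaving out 1 library gave 1049 to 4082: 4082 without uninduced replicate 1 and 2101 without replicate 2, since 1 uninduced list then sufficed. The other counts of both classes stayed within 1.5 times: 13756 to 16617 gained and 710 to 1076 present. The share of gained regions in both +Myf6 lists ran from 29.6 to 96.0% over the alternatives and the share of present regions in both induced lists from 46.6 to 95.8%. Other gene distances and motif windows were not run, since a genome of the same build was not used here. Weak peaks may not have been detectable in the shallower uninduced libraries, and the part of depth in the counts was not separated from that of induction.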

Other observations

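Gained regions lay in small groups at places. Where gaps of up to 10 kb joined neighbours, 1397 groups held 2998 gained regions and 12126 gained regions stood alone. There were 7 groups of at least 5 regions. Among them were one on chromosome 11 (80379979 to 80403581, 5 regions in 23.6 kb) and one on chromosome 2 (160445069 to 160463829, 5 regions in 18.8 kb). How many such groups a random placement would give was not tested.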
